A study of Rattus norvegicus with 39 samples.

Results

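Cerebral cortex of 28-month-old rats fed ad libitum (28 m AL) or kept on caloric restriction (28 m CR) was compared by RNA-seq, 3 pools against 3, to ask how lifelong restriction differs from free feeding in the transcriptome of the aged cortex. The members are the 6 libraries that the labels name 28 months ad libitum (pools 7, 8 and 9) or 28 months calorie restriction (pools 16, 17 and 18), out of 39 libraries in 13 groups of 3. Every library is a pool of cortex RNA from 2 male BN (Brown Norway) rats, housed singly from 2 months of age, when the diets began. CR rats received 55% of the food that control rats ate, of the same chow (CRM diet), and no animal of either group received lipoic acid or changed diet. The other 33 libraries are AL and CR cortex at 6 and 12 months, AL cortex with lipoic acid (LA) at 12 months, and 28-month groups with LA, with a diet switch at 12 months, or with both. These are rats of a single inbred strain and of a single sex, and bulk cortex is a mixture of cell types.

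Caloric restriction is the dietary treatment best known for extending lifespan in rodents. Brain tissue burns glucose in neurons and glia through glycolysis and through oxidative phosphorylation (OXPHOS), in which 5 mitochondrial complexes built from many small nuclear-encoded subunits pass electrons to oxygen and make ATP. Genes of glutathione and thioredoxin metabolism remove reactive oxygen species and electrophiles, metallothioneins bind zinc and copper, and MHC class II genes, which present peptides to T cells, are known to rise in the ageing rodent brain together with the astrocyte filament gene Gfap.

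The 6 libraries held between 3109488 and 5614861 reads on genes, and any pair of pools from one group differed by 5.2 to 12.9 times the counting noise (chi-square per degree of freedom). Levels are given as CPM (a gene's count relative to the library's total on genes) scaled by the trimmed mean of M-values (TMM), fold changes are log2 of CR relative to AL, and a gene is called differentially expressed (DE) at a Benjamini-Hochberg adjusted p under 0.05 in edgeR's quasi-likelihood test. Genes carry Ensembl identifiers only, and symbols were known for 1668 of the 17230 genes tested. These symbols come from lists of genes that the study itself called on these samples, so 30.9% of named genes were DE (21.5% higher, 9.41% lower) against 4.13% of all genes tested (2.9% higher, 1.22% lower), and every count over a gene list below has to be read against that higher share and is not independent evidence of its direction. Members of a list are called measured below if they had a symbol and were tested, and the other listed genes are not in the counts. Measured were 20 of the 38 genes listed for complex I and 12 of the 47 for glutathione and thioredoxin. For ionotropic glutamate receptors these numbers were 6 of 18, and for DNA and histone methylation 12 of 42.

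Before the results, 3 measurements show where libraries stood apart. The first concerns tissue content. Cortical markers with a symbol were present in every pool, with Neurod6, a transcription factor of cortical excitatory neurons, at 39.8, 31.9 and 30.1 CPM in the AL pools and 53.8, 77.8 and 70.6 CPM in the CR pools. Genes that define cerebellar neurons were also present, but in a single diet group. Gabra6, a GABA-A receptor subunit of cerebellar granule cells, was at 592 CPM in AL pool 7 and 531 CPM in AL pool 9, and at 0.290 CPM in AL pool 8 and 0.727, 0.242 and 0.967 CPM in the CR pools. The summed level of the 9 cerebellar markers measured was 2394, 758 and 2292 CPM in AL pools 7, 8 and 9 and 651, 546 and 665 CPM in the CR pools. The other 18 libraries of 28-month rats lay between 522 and 788 CPM. Results that move with these pools are therefore given with and without AL pools 7 and 9, the latter leaving pool 8 as the single AL library, whose spread is then assumed to be that of the CR pools.

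The second measurement concerns age. A score was built from 30 libraries outside the comparison, as the mean log2 CPM of the 50 genes most clearly higher at 28 months (6 diet groups, 18 libraries) than at 6 and 12 months (6 m AL, 6 m CR, 12 m CR and 12 m AL+LA, 12 libraries) minus that of the 50 genes most clearly lower. The 28 m CR pools scored 1.32 to 1.67, within the 1.32 to 1.98 of the other 28-month libraries. The 28 m AL pools scored 0.50, 0.46 and 0.48, below every other 28-month library and inside or beside the 0.38 to 0.52 of 12 m CR. Pools of 12 m AL scored 0.91 to 1.28, 12 m AL+LA 0.64 to 1.18, and the 6-month pools -0.62 to 0.41. On these age-related genes the libraries labelled 28 m AL therefore stood with 12 m CR, below every pool of 12 m AL and 12 m AL+LA. Since all 3 AL pools did so, no comparison at 28 months is free of it. The labels were kept, and the part of this in the results was not tested. The score genes were chosen on the 30 libraries, so the scores of those libraries are not independent of the choice. Pools of 28 m AL, 28 m CR and 12 m AL took no part in it. Of the 500 genes that were higher in CR, 435 (87.0%) also had a positive log2 fold change with age in those 30 libraries, against 49.0% of all genes tested, and 192 of the 211 lower genes (91.0%) had a negative one, against 51.0%. The 28-month side there held no group fed AL without LA throughout, while the younger side held 6 m AL. Age and plain AL feeding are therefore partly mixed in these shares. Few passed the test for age there: 35 of the 500 were DE with age in the same direction and 4 of the 211, while 218 genes (1.27%) were DE with age among all tested.

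The third measurement concerns ribosomal RNA. Rn28s, the gene of the large-subunit ribosomal RNA that ribodepletion is meant to remove, was at 5596, 6075 and 2928 CPM in the AL pools and at 31322, 30452 and 34002 CPM in the CR pools. The groups did not overlap, and Rn28s was higher in CR by 2.73 (SE 0.21, adjusted p = 6.94e-07, edgeR quasi-likelihood test). In other groups Rn28s differed widely between pools of the same diet and age. It was at 6961, 2199 and 36000 CPM in 6 m CR and at 3920, 17594 and 37217 CPM in 28 m AL+LA>CR. The SE and p rest on the 6 libraries compared and do not include that spread. The share of reads that did not align was 33.2%, 32.97% and 27.5% in AL and 39.9%, 38.1% and 40.7% in CR, a difference of 8.36 percentage points (exact two-sided permutation p = 0.1, the smallest that 3 pools against 3 allow). Over the 33 other libraries only 25 of 17229 genes (0.145%) followed Rn28s with a Pearson r of 0.8 or more, all of them without a symbol. All 25 were DE and higher in CR at 28 months, which is 5.01% of the other 499 higher genes. They were also 25 of the 65 other genes (38.5%) whose diet effect differed between 28 and 12 months, and 25 of the 52 of those (48.1%) that were higher in CR at 28 months.

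With all 6 pools, 711 genes were DE, 500 higher in CR and 211 lower. Pools of the groups did not overlap for 495 of the 500 and for 166 of the 211, where 11.7% of all genes tested lay apart with CR higher and 9.84% with CR lower (42.5% and 23.7% of named genes). The median log2 fold change was 0.95 among the higher genes and -0.88 among the lower ones. Without AL pools 7 and 9 all 500 higher genes kept their sign and 83 stayed DE, with a median of 0.86, whereas 187 of the 211 lower genes kept their sign and 14 stayed DE, with a median of -0.47. For these genes it was the AL pools that stood apart from the other libraries of the same age. The mean of AL+LA, which was never restricted, lay nearer to the CR than to the AL mean for 96.8% of the higher and 94.8% of the lower genes, and that of CR>AL, fed ad libitum from 12 months, for 96.4% and 93.4%, where the share over all genes tested was 66.4% in both. The genes were chosen with the same AL pools, so these shares are a description and not a separate comparison. Leaving out single pools moved the count to between 135 (without CR pool 18) and 1120 (without AL pool 8), and every one of the 711 genes kept its sign each time. Where pools do not overlap, as for 495 of the 500 and 166 of the 211, the sign has little room to turn. Kept signs, with single pools or AL pools 7 and 9 left out, are therefore no separate support.

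**Figure D1:**
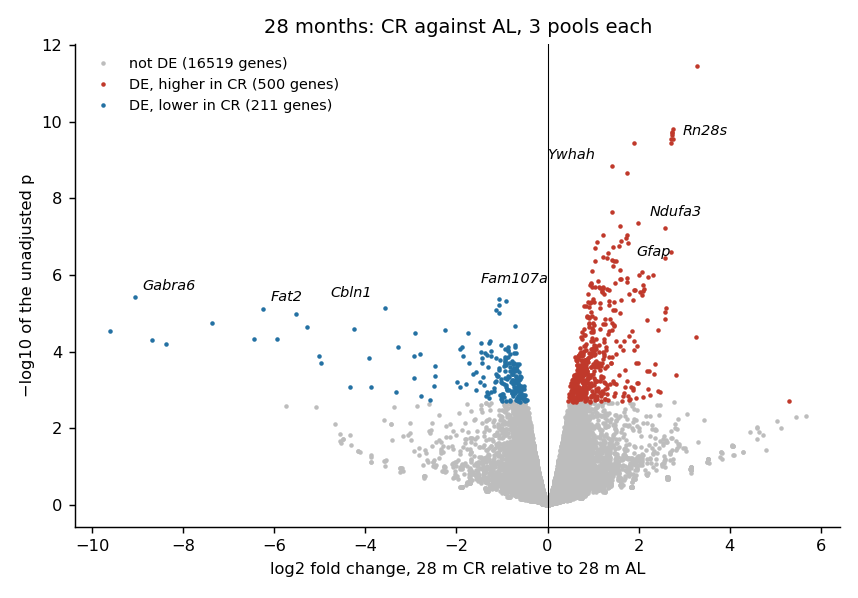
Log2 fold change of 28 m CR relative to 28 m AL (x axis) against the −log10 of the unadjusted p of edgeR's quasi-likelihood test (y axis) for the 17230 genes tested, with 500 DE genes higher in CR in red and 211 lower in blue. The labelled genes at the far left, Gabra6, Fat2 and Cbln1, are cerebellar markers, and Ywhah, Ndufa3, Gfap and Rn28s are among the higher genes.

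Nuclear-encoded subunits of the respiratory chain were higher in CR, and none of those measured was DE in the other direction. Of complex I, which oxidises NADH, 11 of the 20 subunits with a symbol, out of 38 listed, were DE and higher (median log2 fold change 0.69). The counts were 5 of 7 for complexes II and III (median 0.79), 7 of 9 for complex IV, which reduces oxygen (median 0.76), and 3 of 6 for ATP synthase (median 0.70), where the median was 0.00 over all genes tested and 0.34 over the named genes. Ndufa3, an accessory subunit of complex I, was at 8.57, 8.41 and 11.8 CPM in the AL pools and at 29.1, 41.0 and 43.9 CPM in the CR pools. Each CR pool was above every AL pool, and the difference was 2.00 (SE 0.22, adjusted p = 5.85e-05). Cox6a1, a subunit of complex IV, was at 137, 127 and 125 CPM in AL and at 213, 239 and 267 CPM in CR, again with no overlap, which gives 0.90 (SE 0.13, adjusted p = 0.000801). Other subunits that rose were Ndufb7 (1.36), Cox6b1 (1.25) and the ATP synthase subunit Atp5i (1.35). Uqcrb of complex III appears under a pair of identifiers (1.34 and 1.42), and reads of such copies may have been split between them.

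The respiratory chain genes kept their size without AL pools 7 and 9, with medians of 0.68 for complex I and 0.81 for complex IV, although only 2 and 1 subunits then passed the test. With the cerebellar marker score as a covariate in a fit of all 13 groups, 7 subunits of complex I and 7 of complex IV passed. Median log2 fold changes with age in the 30 outside libraries were small, 0.21 for complex I and 0.21 for complex IV, and no subunit of either was DE with age there. At the younger ages, in libraries that share no pool with the 28-month groups, the medians of CR relative to AL were 0.44 and 0.54 at 12 months and 0.74 and 1.03 at 6 months.

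Genes of cytosolic ribosomal proteins rose as well. The list held 63 identifiers for 43 genes, so some genes are counted more than once. Of the 63, 34 were DE and higher, 2 were DE and lower, and the median was 0.66. Rpl8, a protein of the large subunit, was at 27.3, 28.1 and 23.8 CPM in AL and at 89.2, 98.4 and 105 CPM in CR. That is a mean of 26.4 ± 2.28 against 97.4 ± 7.78 CPM (SD, n = 3 pools each) and a log2 fold change of 1.90 (SE 0.15, adjusted p = 6.94e-07). In the 18 other libraries of 28-month rats Rpl8 lay between 73.9 and 129 CPM, so that the AL pools were the low ones. Rpl35 (1.75), Rps26 (1.72) and Rps29 (1.57) rose by similar amounts, while Rpl9 (-0.60) was one of the lower members. Genes of ribosomal proteins have many near-identical pseudogenes, so the assignment of their reads is uncertain. At 12 months the list had a median of 0.54 with 12 members DE and higher, and at 6 months a median of 0.96 with 39 DE and higher, where 2.16% and 2.2% of all genes tested were DE (0.731% higher and 1.43% lower at 12 months, 1.06% higher and 1.14% lower at 6 months). Of the named genes 3.9% were DE and higher at 12 months and 7.07% at 6 months. Without AL pools 7 and 9 the median at 28 months was 0.65 and 13 members passed.

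**Figure D2:**
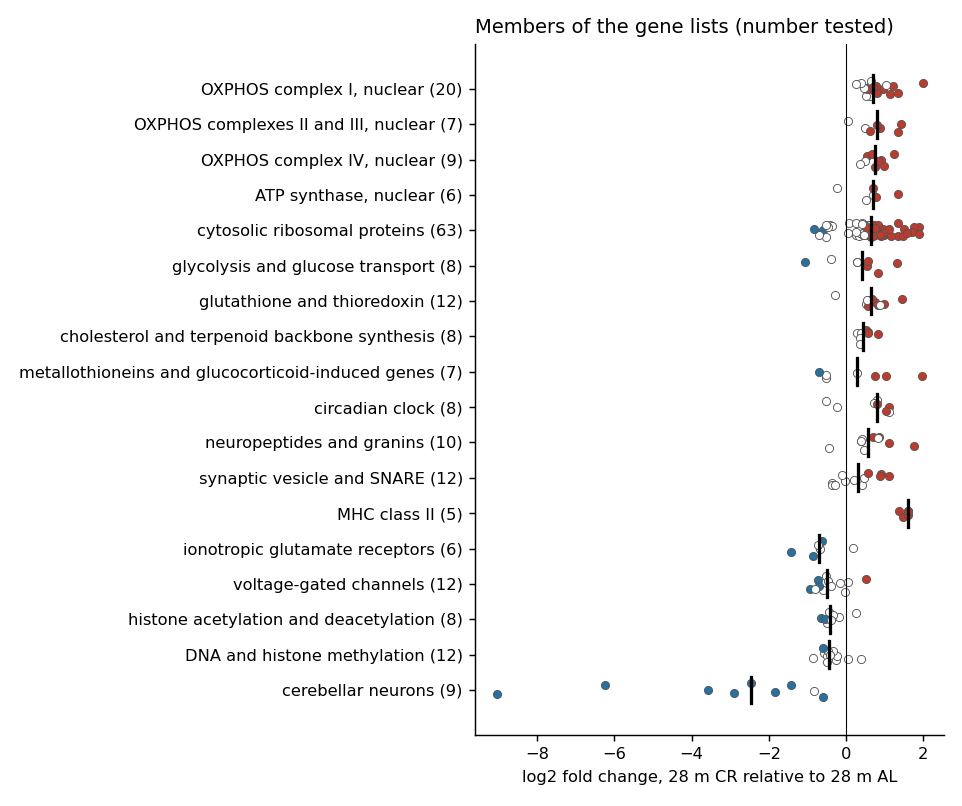
Log2 fold change of 28 m CR relative to 28 m AL (x axis) for each measured member of 18 gene lists (rows, number measured in parentheses), with members DE and higher in red, DE and lower in blue, not DE in white, and the list median as a black bar. Respiratory chain, ribosomal protein and MHC class II genes lie to the right of 0, glutamate receptors and histone-modifying genes mostly to the left, and cerebellar markers far to the left with a median of -2.47.

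Glucose handling was mixed. Slc2a1, the glucose transporter GLUT1 of the blood-brain barrier and glia, was at 47.5, 58.9 and 37.97 CPM in the AL pools and at 122, 127 and 105 CPM in the CR pools. The groups stood apart and the change of 1.31 (SE 0.17, adjusted p = 0.000217) was among those that passed without AL pools 7 and 9 (0.995, adjusted p = 0.0291). It was also DE at 12 months (0.90) and at 6 months (1.001). The glycolytic enzyme Aldoa was higher by 0.84 (adjusted p = 0.00844). Pygm, the glycogen phosphorylase of muscle and astrocytes, which releases glucose from glycogen, was lower by 1.07 on the log2 scale, with 73.7, 70.2 and 87.5 CPM in AL and 45.5, 31.8 and 32.3 CPM in CR. In all, 4 of the 8 measured genes of glycolysis and glucose transport were DE and higher and 1 was DE and lower.

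Detoxification genes rose. Of 12 measured genes of glutathione and thioredoxin metabolism 7 were DE and higher, none was DE and lower, and the median was 0.64. Gstp1, a glutathione S-transferase, which joins glutathione to electrophiles, was at 22.2, 30.5 and 20.6 CPM in AL and at 57.4, 79.5 and 58.8 CPM in CR, without overlap (1.44, SE 0.19, adjusted p = 0.000303). Gstm1 (0.98) and Gsta1 (0.82), transferases of other classes, and Txnrd1 (0.74), the cytosolic thioredoxin reductase, rose less. Por, the reductase that supplies electrons to cytochrome P450 enzymes, was higher by 1.23 (adjusted p = 0.0029). Without AL pools 7 and 9 the median of the list was 0.57 and 1 gene passed. With age in the 30 outside libraries Gstp1 was also higher, by 0.43 (adjusted p = 0.0248).

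The metallothioneins rose together. Their promoters are shown because they lie beside each other on one chromosome and hold the core of the metal response element, the site bound by the zinc-sensing factor MTF1. The sequences are the 250 bases before the start of each gene from RefSeq (rat build GRCr8, chromosome 19, minus strand, 5′ to 3′), and capitals mark the letters TGCACNC or TGCGCNC on either strand.

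Mt1, chr19:10832976-10833225: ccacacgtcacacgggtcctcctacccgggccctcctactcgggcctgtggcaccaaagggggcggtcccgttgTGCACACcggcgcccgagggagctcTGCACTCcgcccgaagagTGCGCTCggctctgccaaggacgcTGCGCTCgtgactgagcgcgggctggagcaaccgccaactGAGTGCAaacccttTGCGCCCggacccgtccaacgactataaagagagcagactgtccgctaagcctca
Mt2A, chr19:10838709-10838958: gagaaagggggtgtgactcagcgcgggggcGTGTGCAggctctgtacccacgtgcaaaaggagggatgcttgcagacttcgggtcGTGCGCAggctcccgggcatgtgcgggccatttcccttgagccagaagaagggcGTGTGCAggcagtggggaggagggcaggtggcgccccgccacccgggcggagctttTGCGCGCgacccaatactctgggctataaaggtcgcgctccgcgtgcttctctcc
Mt3, chr19:10856081-10856330: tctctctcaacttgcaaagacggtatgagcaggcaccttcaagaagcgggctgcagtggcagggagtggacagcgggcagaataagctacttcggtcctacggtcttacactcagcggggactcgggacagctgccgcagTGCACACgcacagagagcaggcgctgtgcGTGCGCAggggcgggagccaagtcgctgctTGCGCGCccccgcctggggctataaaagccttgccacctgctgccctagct

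The windows held 6, 4 and 3 matches. At least 1 match occurred in 20.6% of 33469 RefSeq promoter windows of this length and 3 or more in 1.17% of them, and a match of letters is not a measured binding site. MT1 was at 3.06, 2.03 and 2.08 CPM in the AL pools and at 5.57, 13.1 and 9.67 CPM in the CR pools (1.96, SE 0.38, adjusted p = 0.00717). Mt2A, which like MT1 is induced by metals and glucocorticoids, was at 15.9, 13.1 and 16.4 CPM in AL and at 20.6, 36.6 and 35.8 CPM in CR (1.04, SE 0.22, adjusted p = 0.0126). For Mt3, the brain-enriched member, the levels were 75.9, 80.9 and 105 CPM in AL and 110, 186 and 141 CPM in CR (0.75, SE 0.18, adjusted p = 0.0231). In all 3 genes the lowest CR pool was pool 16 and it still lay above the highest AL pool. MT1 was also higher at 6 months (3.25, adjusted p = 0.0208) and Mt3 as well (0.87, adjusted p = 0.0345), whereas at 12 months neither was DE. Without AL pools 7 and 9 the changes were as large (2.19, 1.24 and 0.84) but were not DE (adjusted p = 0.148, 0.144 and 0.162). The gene family has near-identical copies, so the split of reads between members is uncertain. Hsd11b1, which regenerates active glucocorticoid inside cells, was lower in CR by 0.70 on the log2 scale (adjusted p = 0.0203). It had the value -0.34 without AL pools 7 and 9 (adjusted p = 0.518).

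Among clock genes 3 of 8 measured were DE, all higher, with a median of 0.80 for the list. Dbp, a clock output transcription factor whose transcript cycles over the day, was at 35.5, 35.4 and 30.1 CPM in AL and at 85.3, 62.3 and 69.8 CPM in CR (1.12, SE 0.16, adjusted p = 0.000658). Bhlhe41, a repressor of the clock loop, rose by 1.04, and Per3 had a value of 0.79 that missed the threshold (adjusted p = 0.0629). The hour of death of each animal was not used here. The median was 0.65 and no clock gene was DE without AL pools 7 and 9, and the list had medians of -0.22 at 12 months and -0.10 at 6 months. Genes of cholesterol and terpenoid backbone synthesis were DE and higher in 4 of 8 cases (median 0.45), among them Hmgcs1 (0.51, adjusted p = 0.0426), which makes the precursor of mevalonate, and Fdps (0.58, adjusted p = 0.0342), which makes farnesyl diphosphate. None of the 8 was DE without AL pools 7 and 9 (median 0.43), with the cerebellar score as a covariate, or without AL pool 9 or any single CR pool.

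Genes of secretory vesicles and inhibitory peptides rose in part. Of 10 neuropeptide and granin genes 4 were DE and higher and none lower. Pcsk1n, which encodes the granin-like inhibitor proSAAS, was at 11.8, 17.98 and 12.96 CPM in AL and at 40.7, 55.3 and 45.6 CPM in CR (1.75, SE 0.20, adjusted p = 9.24e-05). Chgb, a granule core protein, rose by 0.70, and the interneuron peptides Npy and Sst rose by 1.11 and 0.86. Of the 6 interneuron markers measured 2 were DE and lower, Gad1 (-0.52, adjusted p = 0.0286), which makes GABA, and Reln (-0.71, adjusted p = 0.0314), which encodes the secreted protein reelin. Reln was at 314, 181 and 330 CPM in AL and 151, 164 and 184 CPM in CR, and had the value -0.13 without AL pools 7 and 9. All 4 measured genes of GABA synthesis and receptors had negative values (median -0.48), of which only that of Gad1 was DE. Of 12 genes of synaptic vesicles and SNARE proteins 4 were DE and higher, including the calcium sensor Syt1 (0.91, adjusted p = 0.00284). The median of the synaptic list went from 0.32 to 0.13 without AL pools 7 and 9, with none DE, and 1 neuropeptide or granin gene was DE. After Rn28s and Rpl8, the named gene with the smallest p was Ywhah, an adaptor that binds phosphorylated proteins, at 336, 350 and 360 CPM in AL and 957, 935 and 891 CPM in CR (1.43, SE 0.12, adjusted p = 2.51e-06), and it lay between 755 and 1156 CPM in the 18 other libraries of 28-month rats.

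Genes of excitatory transmission were lower in CR, and much of their difference lay in AL pools 7 and 9, which held the cerebellar transcripts. Of 6 measured ionotropic glutamate receptor genes 3 were DE, all lower, and the median was -0.71. The receptor gene Grin2c was also assayed by PCR in the study, and the amplicon is shown to place what that assay read, with the primers in capitals (designed sequence of 62 bases, 5′ to 3′).

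GRIN2C: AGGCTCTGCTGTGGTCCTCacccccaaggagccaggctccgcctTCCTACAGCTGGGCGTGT

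Grin2c, an NMDA receptor subunit of cerebellar granule cells and of astrocytes, was at 39.4, 36.8 and 53.7 CPM in AL and at 24.7, 21.1 and 25.3 CPM in CR. AL pool 8 was the lowest of the AL pools and stayed above every CR pool, and without AL pools 7 and 9 the value went from -0.85 (SE 0.18, adjusted p = 0.0127) to -0.64 (adjusted p = 0.275). Grik2, a kainate receptor subunit, had 207, 134 and 205 CPM in AL against 108, 129 and 113 CPM in CR (-0.63, adjusted p = 0.0339, and -0.21 without pools 7 and 9). For the list as a whole the median was -0.16 and no member was DE without AL pools 7 and 9, and it was -0.17 with 1 member lower with the cerebellar score as a covariate. Camk4, a calcium/calmodulin-dependent kinase that is abundant in granule cells, went from -0.96 (adjusted p = 0.0137) to -0.58 (adjusted p = 0.426).

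**Figure D3:**
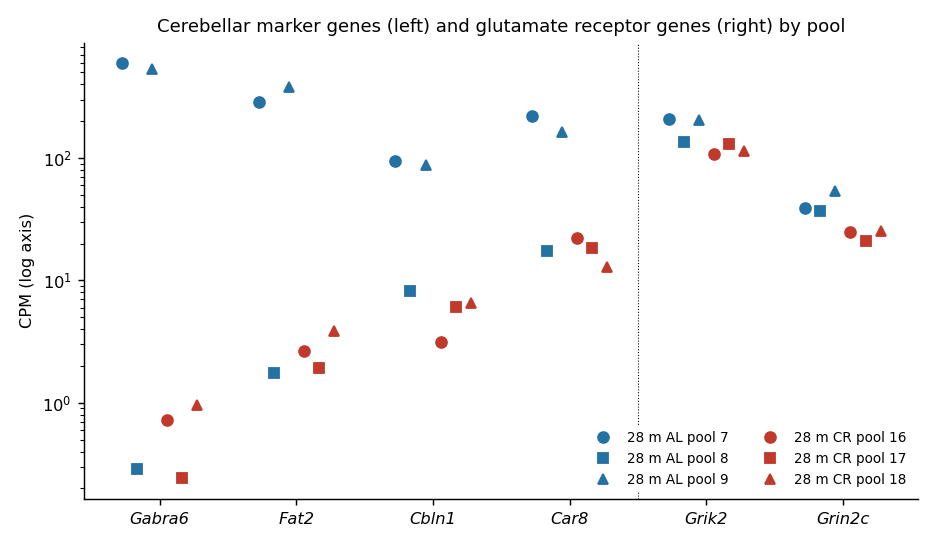
Level of 4 cerebellar marker genes (left of the dotted line) and 2 glutamate receptor genes (right) in each of the 6 pools, in CPM on a log axis, with AL pools in blue and CR pools in red. AL pools 7 and 9 lie far above the other pools for the markers and above them for Grik2 (207 and 205 CPM), and for Grin2c AL pool 8, at 36.8 CPM, also lies above the CR pools.

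Of 12 measured genes of voltage-gated channels 3 were DE and lower and 1 was DE and higher, with a median of -0.49. Kcnc1 and Kcnd2, potassium channel genes, were lower by 0.72 and 0.70 on the log2 scale (adjusted p = 0.0166 and 0.0334). The median of the channel list was -0.39 without AL pools 7 and 9. No channel gene was DE without AL pool 9 or without CR pool 18. With the cerebellar score as a covariate 1 was lower and 1 higher (median -0.31). Chromatin genes were mostly on the lower side with few calls. Of 8 genes of histone acetylation and deacetylation 2 were DE, both lower (median -0.42): the acetyltransferase Kat6a, at 63.3, 54.2 and 79.6 CPM in AL and 43.6, 41.7 and 40.0 CPM in CR (-0.64, adjusted p = 0.0296), and Kansl1, a scaffold of an acetyltransferase complex (-0.55, adjusted p = 0.0426). Of 12 genes of DNA and histone methylation only the demethylase Kdm6a was DE (-0.61, adjusted p = 0.0332). Without AL pools 7 and 9 the values of Kat6a, Kansl1 and Kdm6a were -0.38, -0.24 and -0.56, and none was DE.

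Other genes were lower in CR with and without those pools. Fam107a, a stress- and glucocorticoid-regulated actin-binding protein, was at 566, 683 and 700 CPM in AL and at 391, 306 and 331 CPM in CR (-0.91, SE 0.14, adjusted p = 0.00107). It was as low without AL pools 7 and 9 (-1.001, adjusted p = 0.00709) and was DE and lower at 12 months (-0.66) and at 6 months (-1.04). The RNA helicase Ddx17, at 360, 381 and 393 CPM in AL and 232, 224 and 231 CPM in CR, fell by 0.71 on the log2 scale with a narrow spread in both groups (adjusted p = 0.00317). Htra1, a secreted serine protease, fell by 0.72 (adjusted p = 0.00706), and both genes passed without pools 7 and 9 (adjusted p = 0.0298 and 0.0244).

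MHC class II genes, all 5 of 5 measured, were higher in CR at 28 months, with a median of 1.59. The median was 0.90 and 1 of the 5 was DE without AL pools 7 and 9. In bulk cortex, fewer cells of a type and less RNA per cell cannot be told apart. Cd74, the invariant chain that escorts MHC class II molecules, was at 20.6, 46.7 and 25.7 CPM in AL and at 75.8, 82.2 and 93.0 CPM in CR (1.47, SE 0.23, adjusted p = 0.00107). The groups did not overlap, though AL pool 8 lay closest to CR, and without pools 7 and 9 the value was 0.84 (adjusted p = 0.0769). Gfap was at 140, 203 and 171 CPM in AL and at 390, 696 and 484 CPM in CR (1.62, SE 0.19, adjusted p = 0.000117), and it passed without AL pools 7 and 9 (1.36, adjusted p = 0.0263). Aqp4, the water channel of astrocyte endfeet, did not follow Gfap, at 664, 614 and 670 CPM in AL and 575, 827 and 584 CPM in CR (0.04, adjusted p = 0.918). The other astrocyte markers measured, Gjb6 (a gap junction protein) and Fgfr3 (a growth factor receptor), had values of -0.53 and -0.43 with every CR pool below every AL pool, and neither was DE (adjusted p = 0.0503 and 0.117). Of 5 microglial markers measured 1 was DE and higher, Aif1 (0.84, adjusted p = 0.0235). None of the 5 was DE without AL pool 7, AL pool 9, CR pool 17 or CR pool 18, or with the cerebellar score as a covariate. The median of the 5 went from 0.70 to 0.43 without AL pools 7 and 9. The haemoglobin gene Hba2, a marker of red blood cells, was higher as well, at 19.4, 27.3 and 27.1 CPM in AL and 68.8, 76.8 and 53.4 CPM in CR (1.45, SE 0.19, adjusted p = 0.000224).

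These genes also differed by age in the libraries outside the comparison, where MHC class II had a median log2 fold change with age of 1.46 with 5 of 5 DE, Cd74 one of 1.45 and Gfap one of 0.86. The summed level of the 5 MHC class II genes was 64.7 to 128 CPM in 28 m AL and 219 to 291 CPM in 28 m CR. It was 134 to 348 CPM in the other 28-month groups, 301 to 492 CPM in 12 m AL, 43.5 to 102 CPM in 12 m CR and 23.4 to 65.0 CPM in the 6-month groups. The AL pools at 28 months thus lay below every other library of that age, and the AL pools at 12 months lay above most of them.

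**Figure D4:**
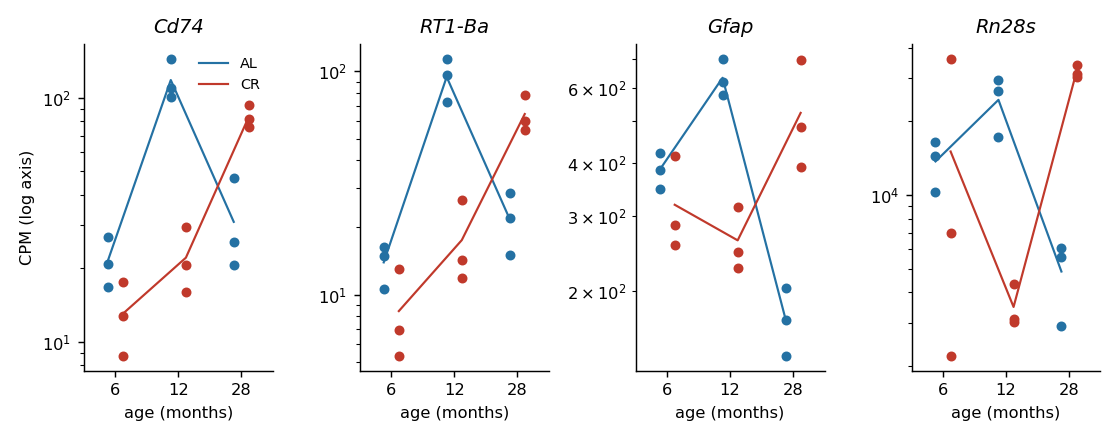
Level in CPM (log axis) of Cd74, RT1-Ba, Gfap and Rn28s in each AL pool (blue) and CR pool (red) at 6, 12 and 28 months, with lines through the group means and 3 pools per group and age. In all 4 genes AL was above CR at 12 months and below it at 28 months, as for Cd74, whose log2 fold change was -2.38 at 12 months and 1.47 at 28 months.

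Set against the younger ages, in pools that the 28-month comparison did not use, most changes had the same sign and fewer were DE at another age as well. Of the 500 higher genes 382 (76.4%) had a positive log2 fold change at 12 months and 421 (84.2%) at 6 months, against 51.0% and 48.3% of all genes tested. Of these 500, 53 were DE and higher at 12 months, 106 at 6 months and 37 at all 3 ages, and 36 were DE in the opposite direction at 12 months. Of the 211 lower genes 196 (92.9%) had a negative value at 12 months and 192 (91.0%) at 6 months, against 48.9% and 51.5%, with 57 and 18 DE and 8 DE at all 3 ages. AL pools with cerebellar transcripts occurred at those ages too, pool 2 at 6 months and pools 5 and 6 at 12 months. At 6 months 32.1%, 29.1% and 31.3% of reads did not align in AL, against 40.3%, 40.2% and 40.8% in CR. At 12 months the shares were 30.4%, 36.1% and 34.4% in AL and 41.1%, 41.1% and 43.2% in CR. Other groups fed ad libitum when sampled did not have the low shares of the plain AL pools. They had 40.8%, 38.5% and 41.3% in 28 m AL+LA, 40.3%, 40.1% and 40.7% in 28 m CR>AL, and 39.3%, 41.0% and 39.4% in 12 m AL+LA. Pool 23 of 28 m AL+LA>CR, a restricted group, had 34.1%. The comparisons at all 3 ages thus share plain AL pools with low shares on the AL side. The part of these differences in the shared signs was not tested. Of the 12 m AL libraries, pool 5 held only 494091 reads on genes, against 3813173 and 2366549 in pools 4 and 6. The difference of the diet effect between 28 and 12 months was DE for 66 genes (0.383%), or 57 without 12 m AL pool 5, and that between 28 and 6 months for 2 genes (0.0116%). Gfap had both, with CR relative to AL at 1.62 at 28 months, -1.28 at 12 months and -0.29 at 6 months. The difference between 28 and 6 months rests on few libraries, since no gene was DE for it without 28 m AL pool 7 or 9, 28 m CR pool 17 or 18, 6 m AL pool 1 or 2, or 6 m CR pool 11. By contrast Rpl8 was higher in CR at every age, by 1.90, 1.27 at 12 months and 1.46 at 6 months, with no DE difference between ages (adjusted p = 0.537 and 0.69).

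**Figure D5:**
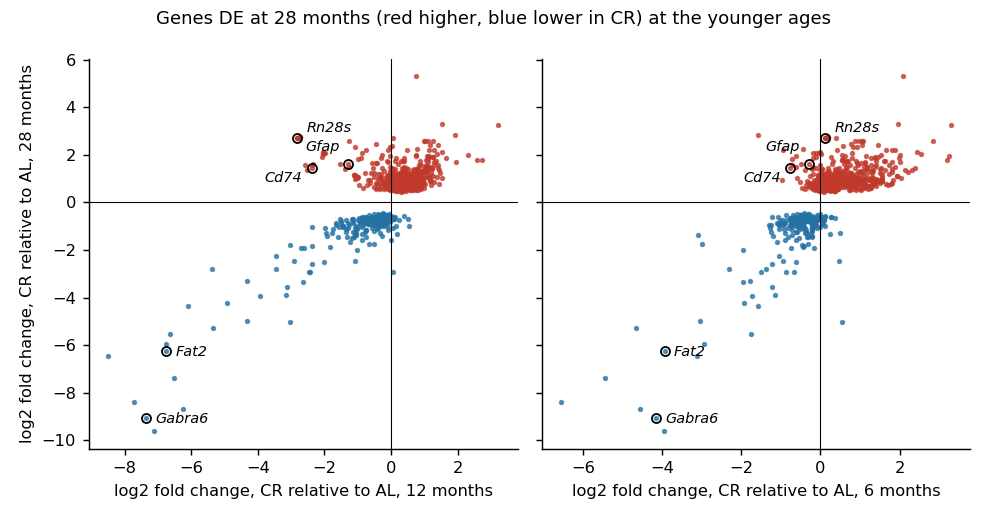
Log2 fold change of CR relative to AL at 28 months (y axis, both panels) against the same at 12 months (left) and at 6 months (right) for the 711 genes DE at 28 months, red where higher and blue where lower in CR. Most points share their sign, 382 of 500 and 196 of 211 at 12 months, and Rn28s, Cd74 and Gfap (circled) lie in the opposite quadrant at 12 months, while Gabra6 and Fat2 are low in CR at all ages.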

How the data were processed

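Ribodepleted total RNA of 39 cortex pools was sequenced on a SOLiD instrument as 75-base forward reads. The authors aligned these with Bowtie against the rn5 assembly (Rnor_5.0), left out multi-mapping reads, ran HTSeq-count over Ensembl genes, and deposited the raw counts. The last 5 lines of each file, reads on no gene or not aligned, were dropped.

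A gene entered the tests if 3 of 39 libraries reached 1 CPM, taken over gene reads only (17230 of 26123). Each comparison was fitted on its 6 libraries, and the differences between ages on 12, with edgeR 4.0.16 (R 4.3.3; TMM, quasi-likelihood test, Benjamini-Hochberg). DESeq2 1.42.0, other filters, size factors and fits were alternatives. The scripts were tested on simulated data.

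Named genes were, per direction, the 12 named DE genes with the smallest adjusted p and pools apart, up to 4 genes per list by p, and genes the study names. The members, lists and tests were chosen with earlier results of these data known. The age score, the count over all lines and the 13-group list medians were added after seeing the data. Symbols came from the study's supplementary tables (1668 genes), with no annotation of that build used here. Sequences came from RefSeq (GRCr8) and the study's assay designs. Pools are the replicates, so n is 3, and errors of mean levels (±) are SD over pools. The SE of a log2 fold change is its absolute value divided by the square root of edgeR's quasi-likelihood F. Depth limits genes of a few CPM most. Some genes of the lists are counted but not reported by name here.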

Additional observations from a re-analysis of the deposited data

Results flagged for a closer look

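For the genes below, the log2 fold change of CR relative to AL differed between the labelled ages by a test of the difference itself (edgeR interaction of diet and age, adjusted p). From 12 to 28 months the log2 fold change of CR relative to AL moved upward by 5.52 (SE 0.33, adjusted p = 1.76e-10) for Rn28s, from -2.82 to 2.73. The same difference was 3.81 for Cd74, 3.94 for RT1-Ba, 3.88 for RT1-Db1 and 3.91 for RT1-Da, the genes of MHC class II, each DE in opposite directions at the 2 ages. For Gfap it was 2.88 (SE 0.26, adjusted p = 4.39e-07) against 12 months and 1.88 (SE 0.29, adjusted p = 0.0456) against 6 months. The haemoglobin genes Hba2 and Hba-a2, near-identical copies, had differences of 1.98 and 1.99, with values at 12 months of -0.56 and -0.78 that were not DE. Pcsk1n differed by 1.60 (adjusted p = 0.0229) and Ywhah by 0.87 (adjusted p = 0.03), and Dbndd2 differed by 1.36 between 28 and 6 months (adjusted p = 0.0484).

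Rn28s and these genes did not move together in every library. The 28-month AL+LA>CR pool 22 and AL+LA pool 34 had Rn28s at 3920 and 8533 CPM, near the 28 m AL pools, but Gfap at 637 and 693 CPM and Cd74 at 51.8 and 76.7 CPM, above them. Over the 33 libraries outside the comparison the r with Rn28s was 0.56 for Cd74, 0.55 for Gfap, 0.48 for Pcsk1n, 0.43 to 0.44 for the other 3 MHC class II genes named here, 0.26 and 0.35 for Hba2 and Hba-a2, 0.06 for Dbndd2 and 0.0056 for Ywhah. The part of Rn28s in the differences was not tested. Rn28s also varied widely between pools of some other groups, as in 6 m CR at 6961, 2199 and 36000 CPM. The SE and adjusted p of its own difference do not include that spread.

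On the age score of the report the 28 m AL pools lay at 0.46 to 0.50 and the 12 m AL pools at 0.91 to 1.28, against 1.32 to 1.67 in 28 m CR and 0.38 to 0.52 in 12 m CR. Of these groups only 12 m CR was among the libraries used to choose the score genes. A diet effect that changes with age and AL libraries that stand apart in age-related genes cannot be told apart in these differences for MHC class II genes and Gfap. The age labels of the AL libraries were kept, and an exchange of them was not tested.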

How the results depend on the processing

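The 711 DE genes at 28 months became 119 without AL pools 7 and 9, 430 with the cerebellar score as a covariate and 1226 without a low-count filter. Of the 711, 614 were among DESeq2's 689 calls, 710 among the 972 of the exact test and 691 among the 707 with RLE size factors. With 1 pool left out the count ran from 135 to 1120: 434, 1120 and 227 without AL pool 7, 8 or 9, and 543, 357 and 135 without CR pool 16, 17 or 18. At 12 months 372 genes became 857 with all 13 groups in one fit and 760 without a filter, and 109 (without CR pool 14) to 756 (without AL pool 4) with 1 pool left out, 206 without AL pool 5 and 212 without CR pool 13. At 6 months 379 became 1375, 619 with the exact test and 791, and 67 (without CR pool 12) to 573 (without AL pool 3), with 150, 170 and 153 without AL pool 2, CR pool 10 or CR pool 11. The 66 differences between 28 and 12 months became 122, 112 with DESeq2 and 214, and 46 to 83 with 1 pool left out. The 2 between 28 and 6 months became 36, 28, 128, and 0 with the filter over every line (edgeR, 1085 at an unadjusted p under 0.05), and 0 to 19 with 1 pool left out.

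Without AL pools 7 and 9 the median of metallothioneins and glucocorticoid-induced genes turned to -0.14 and that of cerebellar markers to 0.0096, and Gabra6, Fat2, Car8 and Nrep to 1.11, 0.70, 0.0096 and 0.19. With the covariate Fat2 turned to 0.76. Of 117 named DE genes 41 passed with each pool left out and 28 under every alternative. No paired analysis was possible because the pools are numbered 1 to 39 across groups and share no replicate number.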
